A study of Mus musculus with 10 samples.

Results

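The 8 genes described here encode the colony stimulating factor (CSF) receptors and ligands of mouse phagocytes. They were chosen by symbol, as a family: the CSF1 receptor gene Csf1r with its ligand genes Csf1 and Il34, the G-CSF receptor gene Csf3r, the GM-CSF receptor alpha chain gene Csf2ra, the IL-3 receptor alpha chain gene Il3ra, and the beta chain genes Csf2rb and Csf2rb2. All 8 were among the 28247 genes of the deposited table, each in a single row, and all 8 were among the 15916 genes with enough counts to be tested. With a miR-378a-3p mimic, 6 members were lower, by factors from 1.31 for Csf2rb to 6.22 for Csf3r. Of all tested genes 63.2% differed, 31.5% lower and 31.7% higher. Csf2ra, with means of 26.4 and 28.7 FPKM, and Il3ra, the most sparsely counted member, did not pass the test.

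CSF1 and IL-34 both bind the CSF1 receptor, a receptor tyrosine kinase on which microglia depend for survival and growth. GM-CSF and IL-3 act through receptors of another kind, in which an alpha chain specific to the cytokine pairs with a beta chain that binds the kinase JAK2 and passes the signal on through STAT5. G-CSF acts through a receptor of paired like chains, best known from neutrophils, whose signal runs largely through STAT3.

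The libraries came from wild-type primary mouse microglia given oligomers of amyloid-β, the peptide of Alzheimer's plaques, before transfection. In 5 libraries the cells had received negative control mimics and in 5 mimics of miR-378a-3p, a microRNA; cells without amyloid-β or without transfection were not analysed here, so every difference is one between amyloid-treated cells. The study asked what miR-378a-3p does to microglia in this setting. The labels give neither the age of the animals nor whether replicates were separate cultures. The p-values therefore set each difference only against the spread of these libraries, which may be technical.

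The libraries held 48707985 to 65069571 counts, at about 4 counts per read pair. Macrophage genes were abundant. The 12 listed microglia and macrophage markers in the table summed to 906 to 962 FPKM (fragments per kilobase, scaled by library size) in control libraries. In mimic libraries they summed to 825 to 865 FPKM. Cd68, the most abundant, had means of 526 and 598 FPKM and was the 1 marker that rose. The sums therefore hide that 10 of the 12 fell, beside 31.5% of all tested genes. Tmem119, P2ry12 and Fcrls are markers of microglia in the brain, named because their values were low. Their means were 0.695, 1.49 and 0.200 FPKM in control libraries and 0.325, 0.257 and 0.138 FPKM in mimic libraries. Markers of neurons, of oligodendrocyte lineage cells, of fibroblasts and vessels, of neutrophils, and of lymphocytes, dendritic and mast cells each summed to at most 2.12 FPKM in every library, with Rbfox3 at 0 throughout. Astrocyte markers summed to 74.6 to 107 FPKM, nearly all of it from Aldoc. Gja1, Sox9 and Aldh1l1 were at 0 in all control libraries and at most 0.226, 0.212 and 0.0403 FPKM in mimic libraries. Mimic replicate 1 stood apart. Its epithelial markers summed to 65.8 FPKM, chiefly Krt18 and Krt8, against at most 0.396 FPKM in each of the other 9 libraries.

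At an adjusted p under 0.05 in edgeR's quasi-likelihood test, 6 of the 8 members fell with the mimic and 0 rose. Of all tested genes 63.2% passed this threshold, 31.5% lower and 31.7% higher with the mimic. The members that did not pass were Csf2ra and Il3ra, with unadjusted p of 0.453 and 0.0481. DESeq2 also called 6 lower and 0 higher, and limma on log2(FPKM + 1), which keeps the authors' scaling, called 6 lower and 1, Csf2ra, higher. The FPKM values of the 2 groups did not overlap for the 6 called members, as was so for 52.2% of all tested genes. The median log2 fold change of the 8 was -0.59, against -0.0021 over all tested genes. The 6 members fell under each scaling tried, although library totals or FPKM in place of TMM raised the share of higher genes among all calls from 50.2% to 58.4% or 59.8% and the median of all genes from -0.0021 to 0.0751 or 0.0510. Without mimic replicate 1 the count was again 6 lower and 0 higher, and the log2 fold changes of Csf1 and Csf3r were -1.71 and -2.72 in place of -1.65 and -2.64. In RNA from whole cultures, fewer cells expressing a gene and less of its RNA per cell cannot be told apart.

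**Figure D1:**
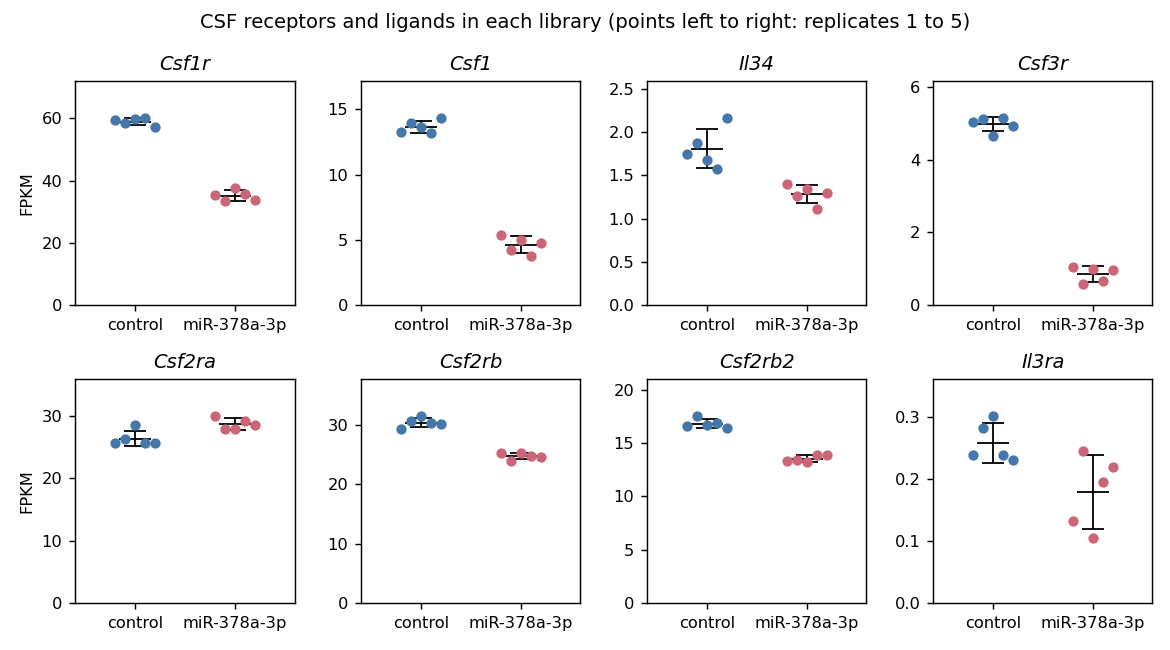
FPKM of the 8 members in each library, 5 with control mimic (blue) and 5 with miR-378a-3p mimic (red); bars give the mean and SD. The groups are apart for Csf1r, Csf1, Il34, Csf3r, Csf2rb and Csf2rb2 and overlap for Csf2ra and Il3ra.

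Csf1r was the most abundant member in both groups. Its control libraries held 59.4, 58.5, 59.6, 60.0 and 57.1 FPKM, and its mimic libraries 35.4, 33.3, 37.6, 35.8 and 33.8 FPKM (replicates 1 to 5 here and below). Every mimic library lay below every control library, by far more than the spread within either group. The mean fell from 58.9 ± 1.13 to 35.2 ± 1.70 FPKM (SD, n = 5 each), a log2 fold change in edgeR of -0.84 ± 0.0352 (SE, adjusted p = 2.17e-11), or 1.78-fold lower. Of all tested genes 11.6% had a lower log2 fold change. The gene (ENSMUSG00000024621) lies on the plus strand of chromosome 18, from 61100598 to 61131134 in the deposited coordinates, which match the GRCm38 build.

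The genes most like Csf1r over the 10 libraries were Flna, Fdps and Xbp1, which encode the actin crosslinker filamin A, farnesyl diphosphate synthase and a transcription factor of the unfolded protein response. Likeness was the root mean square distance between centred log2 CPM profiles, 0.0313, 0.0334 and 0.0339 for these 3 genes, among 11520 genes with a mean of at least 1 FPKM. Likeness in libraries of 2 groups is mostly a like difference between the groups, and the log2 fold changes of the 3 genes were -0.79, -0.84 and -0.82.

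**Figure D2:**
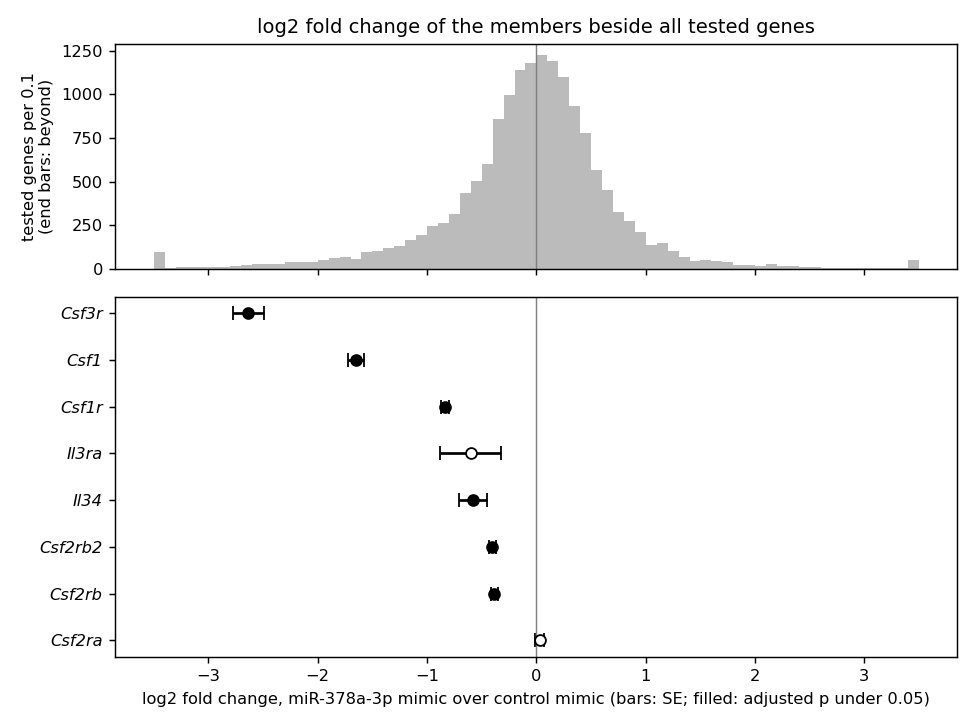
Log2 fold change of each member (lower panel, with its SE; filled where the edgeR adjusted p was under 0.05), above it the distribution over all tested genes, with values beyond the axis in the end bars. Csf3r and Csf1 lie in the lower tail, at -2.64 and -1.65, and Csf2ra near the middle, at 0.031.

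Csf1 encodes macrophage colony stimulating factor, and its RNA was found in the microglia cultures beside that of its receptor. The control libraries held 13.3, 14, 13.7, 13.2 and 14.3 FPKM and the mimic libraries 5.40, 4.22, 4.96, 3.80 and 4.80 FPKM. All control values lay far above all mimic values, and among the mimic libraries replicates 2 and 4 were the lowest. The mean fell from 13.7 ± 0.469 to 4.63 ± 0.633 FPKM (SD, n = 5 each), a log2 fold change in edgeR of -1.65 ± 0.0750 (SE, adjusted p = 5.05e-11), or 3.14-fold lower. Of all tested genes 3.83% had a lower log2 fold change. Csf1 (ENSMUSG00000014599) lies on the minus strand of chromosome 3, from 107741048 to 107760469 on GRCm38, and has 6 transcripts in the deposited table, among them, as background, forms for a secreted and a membrane-bound ligand. Counts per FPKM differed between the groups by 0.000468 on the log2 scale, so the 2 measures are one reading over a fixed gene length and the table does not separate those forms.

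Il34 encodes the second ligand of the CSF1 receptor, which in the brain is known mainly from neurons. It was low, with 1.75, 1.88, 1.68, 1.57 and 2.16 FPKM with the control mimic and 1.40, 1.26, 1.34, 1.12 and 1.30 FPKM with the miR-378a-3p mimic. The groups did not overlap, but the lowest control value was close to the highest mimic value, and control replicate 5 was the highest of all. The mean fell from 1.81 ± 0.226 to 1.28 ± 0.106 FPKM (SD, n = 5 each), a log2 fold change in edgeR of -0.58 ± 0.124 (SE, adjusted p = 0.000768), or 1.5-fold lower. In limma on log2(FPKM + 1), where low genes change less by construction, the difference was -0.30. The neuron markers listed summed to at most 0.401 FPKM in every library, and their part in the result was not tested. Gm15894, which overlaps 3979 bases of Il34 on the other strand, was at 0.412 ± 0.0793 and 0.278 ± 0.0416 FPKM and fell alike (log2 fold change -0.63, edgeR adjusted p = 0.0288). Whether counting used the strand is not given in the sources used here, so reads of this pair may not have been told apart. The gene (ENSMUSG00000031750) lies on the minus strand of chromosome 8, from 110741829 to 110805903.

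Csf1 was 7.57-fold and 3.61-fold more abundant than Il34 per length in the control and mimic groups. Set against its receptor within each library, Csf1 also fell more than Csf1r did. The log2 ratio of Csf1 to Csf1r FPKM ran from -2.18 to -2.0 in control libraries and from -3.24 to -2.71 in mimic libraries, and its mean moved from -2.11 ± 0.0754 to -2.93 ± 0.199 (SD, n = 5 each). That is 0.232 Csf1 transcripts per Csf1r transcript in control cells and 0.131 in mimic cells, on the FPKM scale. The groups did not overlap (exact two-sided permutation p = 0.00794, the smallest that 5 against 5 allows; 0.0119 after Benjamini-Hochberg adjustment over the 3 ratios tested). A ratio within a library does not depend on how libraries are scaled to each other.

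Csf3r, the receptor of granulocyte colony stimulating factor, showed the largest difference of the 8. Control libraries held 5.03, 5.13, 4.66, 5.14 and 4.93 FPKM and mimic libraries 1.05, 0.572, 0.999, 0.654 and 0.971 FPKM. The lowest control value was 4.44-fold the highest mimic value, and mimic replicates 2 and 4 were again the lowest of their group, as for Csf1. The mean fell from 4.98 ± 0.197 to 0.849 ± 0.219 FPKM (SD, n = 5 each), a log2 fold change in edgeR of -2.64 ± 0.143 (SE, adjusted p = 3.65e-10), or 6.22-fold lower. On the log2(FPKM + 1) scale, which understates changes of low genes, limma gave -1.70. Of all tested genes 1.19% had a lower log2 fold change. The mimic libraries held 136 to 245 counts of Csf3r, well over the floor of 12 counts (3 read pairs). The gene (ENSMUSG00000028859) lies on the plus strand of chromosome 4, from 126024550 to 126044440.

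Markers of neutrophils, the cells from which Csf3r is best known, were low in both groups. All 10 listed markers had a mean under 1 FPKM, and their sum was 1.11 to 2.12 FPKM in control and 0.929 to 1.45 FPKM in mimic libraries, and Csf3r itself was at 4.66 to 5.14 and 0.572 to 1.05 FPKM. Their part in the result was not tested. Of the 4 that could be tested, Mmp8 fell from a mean of 0.643 to 0.00495 FPKM, Cxcr2 rose from 0.104 to 0.354 FPKM, and S100a8 and S100a9 did not pass (edgeR adjusted p = 0.497 and 0.808). Ly6g was at 0 in every control library and at most 0.0588 FPKM in mimic libraries. The genes most like Csf3r in profile were Ighm, Cst7 and BC021767, at distances of 0.198, 0.203 and 0.206. Those nearest to Csf1 were Gm38248, Olfm1 and Dok7, at 0.0621, 0.0973 and 0.0995.

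The RefSeq sequence around the annotated start, from 250 bases before it to 50 after (build GRCm38.p6), was at hand for 5 of the 8 members. Those of the 2 members with the largest falls, Csf3r and Csf1, and of Csf2ra, which differed least, are shown to compare the stretch where transcription starts. Each reads 5′ to 3′ on the gene's own strand, and capitals mark matches on either strand to 4 motifs of factors of myeloid or cytokine-driven transcription and to the TATA box. The motifs were chosen with these sequences in view.
Csf3r, chr4:126024409-126024708, plus strand: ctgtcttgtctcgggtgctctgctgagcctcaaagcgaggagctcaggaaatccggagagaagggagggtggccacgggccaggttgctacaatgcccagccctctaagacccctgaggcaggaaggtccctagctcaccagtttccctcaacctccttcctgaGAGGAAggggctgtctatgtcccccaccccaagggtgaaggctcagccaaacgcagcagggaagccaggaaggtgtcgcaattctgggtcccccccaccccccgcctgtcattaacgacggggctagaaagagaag
Csf1, chr3:107760420-107760719, minus strand: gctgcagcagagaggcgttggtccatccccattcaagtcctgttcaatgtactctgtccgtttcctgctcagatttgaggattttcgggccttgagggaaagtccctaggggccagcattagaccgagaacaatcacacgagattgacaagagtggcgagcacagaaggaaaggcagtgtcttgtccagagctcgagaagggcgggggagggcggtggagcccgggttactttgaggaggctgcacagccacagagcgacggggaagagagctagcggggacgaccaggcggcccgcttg
Csf2ra, chr19:61228369-61228668, minus strand: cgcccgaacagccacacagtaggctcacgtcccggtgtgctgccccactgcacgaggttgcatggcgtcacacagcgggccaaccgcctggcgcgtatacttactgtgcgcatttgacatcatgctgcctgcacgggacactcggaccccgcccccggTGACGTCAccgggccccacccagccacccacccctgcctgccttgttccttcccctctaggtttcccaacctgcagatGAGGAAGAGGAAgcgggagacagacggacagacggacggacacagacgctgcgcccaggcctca

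The motif GAGGAA, the core bound by the myeloid factor PU.1, is in the Csf3r stretch once, at position -86 from the start, and in the Csf2ra stretch in 2 adjoining copies, at -14 and -8. It is in 28.3% of 32851 promoters of this length. TGACGTCA, the cyclic AMP response element, is in the Csf2ra stretch at -92, and in 1.79% of promoters. TGANTCA (AP-1, in 7.81% of promoters), TTCNNNGAA (STAT, in 8.30%) and TATAAA (in 13.6%) are in none of the 3 stretches, and the Csf1 stretch has none of the 5. The stretch of Csf2rb2, which fell and is not shown, has TTCNNNGAA at -15. It also has GAGGAA on the other strand, at -167 and 30. A match is a run of letters and not a shown site, and the lack of one says only that these letters are not in this window. No 2 of the 5 motifs overlap in these sequences.

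Csf2ra encodes the chain that makes the receptor specific for GM-CSF. Control libraries held 25.6, 26.3, 28.6, 25.7 and 25.7 FPKM and mimic libraries 30.0, 28.0, 27.9, 29.2 and 28.5 FPKM. The groups overlapped only through control replicate 3, which lay above 3 of the 5 mimic libraries. The means were 26.4 ± 1.27 and 28.7 ± 0.893 FPKM (SD, n = 5 each), and on the TMM scale the log2 fold change in edgeR was 0.031 ± 0.0400 (SE, adjusted p = 0.524). Its 95% interval, from the SE, ran from -0.048 to 0.109. The call hung on the scaling, since with library totals in place of TMM the log2 fold change was 0.108 (edgeR adjusted p = 0.0238) and with limma on log2(FPKM + 1) it was 0.118 (adjusted p = 0.0111). Over all alternatives its adjusted p ran from 0.0111 to 0.972. The gene (ENSMUSG00000059326) lies on the minus strand of chromosome 19, from 61223957 to 61228429.

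The beta chain genes fell by a similar, small amount. Csf2rb, which encodes the chain shared by GM-CSF, IL-3 and IL-5, held 29.4, 30.7, 31.5, 30.4 and 30.1 FPKM with the control mimic and 25.4, 24.0, 25.3, 24.9 and 24.6 FPKM with the miR-378a-3p mimic. Its mean fell from 30.4 ± 0.788 to 24.8 ± 0.556 FPKM (SD, n = 5 each), a log2 fold change in edgeR of -0.38 ± 0.0301 (SE, adjusted p = 2.40e-08). Csf2rb2, which in the mouse encodes a second beta chain that serves IL-3 only, held 16.6, 17.5, 16.7, 16.9 and 16.4 FPKM with the control mimic and 13.3, 13.4, 13.2, 13.8 and 13.9 FPKM with the miR-378a-3p mimic. Its mean fell from 16.8 ± 0.438 to 13.5 ± 0.320 FPKM (SD, n = 5 each), a log2 fold change in edgeR of -0.40 ± 0.0322 (SE, adjusted p = 3.07e-08). In both genes every mimic library was below every control library. These folds were modest among all genes, with 24.7% and 23.9% of tested genes at a lower log2 fold change.

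Csf2rb (ENSMUSG00000071713, plus strand, 78325752 to 78351001) and Csf2rb2 (ENSMUSG00000071714, minus strand, 78282507 to 78305721) are neighbours on chromosome 15 and near-identical, so how reads were divided between them is uncertain. Their longest coding sequences in GENCODE M21, of 2688 and 2634 bases, differ at 125 of 2628 aligned bases, an identity of 95.2%. Of all windows of 150 bases, the length of a read, 6.64% of the Csf2rb2 coding sequence is also in that of Csf2rb without a difference, and of windows of 50 bases 26.6%. The longest stretch without a difference is 242 bases. The first 90 coding bases hold 3 of the differences and are printed with the differing bases in capitals to show how few bases tell a read of one gene from a read of the other.
Csf2rb: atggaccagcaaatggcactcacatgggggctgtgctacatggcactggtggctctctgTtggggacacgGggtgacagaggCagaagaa
Csf2rb2: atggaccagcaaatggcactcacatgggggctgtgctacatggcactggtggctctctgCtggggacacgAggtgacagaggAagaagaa

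With the counts of both genes summed, the log2 fold change in edgeR was -0.39 ± 0.0277 (SE, adjusted p = 8.18e-09), so the fall does not rest on the division of reads. Csf2rb2 made up 35.6% ± 0.699 of the beta chain FPKM in the control group and 35.3% ± 0.868 in the mimic group (SD, n = 5 each). The ranges, 34.6 to 36.3% and 34.3 to 36.1%, overlapped, and the difference of -0.294 percentage points did not pass (exact two-sided permutation p = 0.563, adjusted over the 3 ratios 0.563).

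The alpha chain of the GM-CSF receptor gained on the beta chains. The log2 ratio of Csf2ra to the summed beta chain FPKM ran from -0.88 to -0.75 in control libraries and from -0.47 to -0.37 in mimic libraries. Its mean moved from -0.84 ± 0.0518 to -0.42 ± 0.0376 (SD, n = 5 each). That is 0.558 and 0.748 Csf2ra transcripts per transcript of the 2 beta chain genes together, on the FPKM scale. The sum includes Csf2rb2, which serves IL-3 only, so these are not proportions of the GM-CSF receptor's own chains. Beside Csf2rb alone, mean Csf2ra was 26.4 against 30.4 FPKM in control and 28.7 against 24.8 FPKM in mimic libraries. The groups did not overlap (exact two-sided permutation p = 0.00794, the smallest possible, and 0.0119 adjusted over the 3 ratios), and the ratio does not depend on the scaling between libraries that moved the call of Csf2ra itself.

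**Figure D3:**
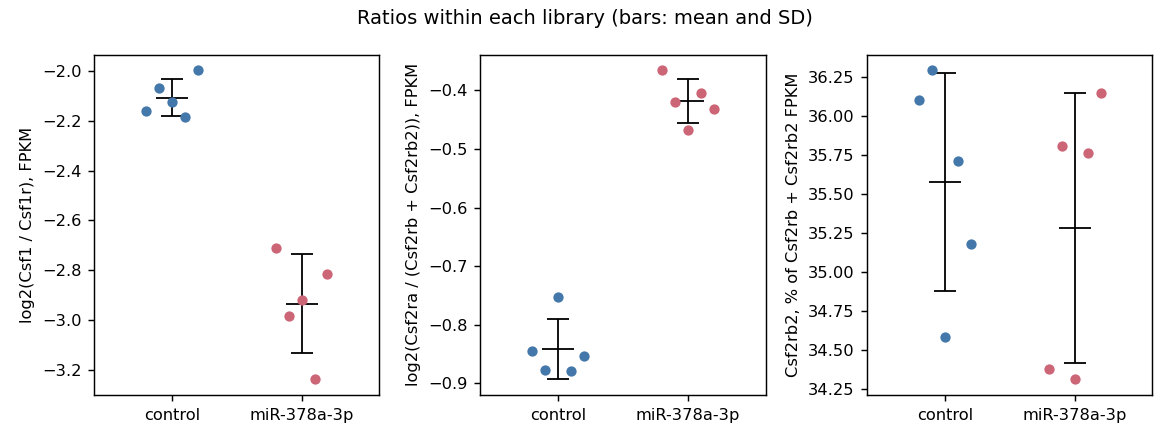
Ratios of member FPKM within each library, for 5 control mimic (blue) and 5 miR-378a-3p mimic (red) libraries, with mean and SD; vertical axes do not start at 0. Csf1 per Csf1r is lower in all mimic libraries, Csf2ra per beta chain is higher in all of them, and the Csf2rb2 share of the beta chains overlaps.

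Il3ra, the alpha chain of the IL-3 receptor, was the least expressed member. Control libraries held 0.239, 0.283, 0.302, 0.239 and 0.231 FPKM and mimic libraries 0.132, 0.246, 0.105, 0.195 and 0.219 FPKM, with mimic replicate 2 above 3 control libraries. These values rest on 39 to 66 counts in control and 20 to 50 counts in mimic libraries, at about 4 counts per read pair. The means were 0.259 ± 0.0317 and 0.180 ± 0.0595 FPKM (SD, n = 5 each), and the log2 fold change of -0.60 (SE 0.278) missed the threshold (edgeR adjusted p = 0.0727). Without mimic replicate 2 it was -0.75 with an adjusted p of 0.0396, and over all alternatives the adjusted p ran from 0.0396 to 0.156. The gene (ENSMUSG00000068758) lies on the plus strand of chromosome 14, from 14346275 to 14355493.

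The order of levels per length changed with the mimic. In control libraries it was Csf1r, Csf2rb, Csf2ra, Csf2rb2, Csf1, Csf3r, Il34 and Il3ra, and in mimic libraries Csf1r, Csf2ra, Csf2rb, Csf2rb2, Csf1, Il34, Csf3r and Il3ra. No neighbours in either order overlapped in their FPKM ranges. Csf2ra thus stood above Csf2rb in all mimic libraries and below it in all control libraries, and Csf3r dropped below Il34. Of the summed FPKM of the 8 genes, Csf1r took 38.4% ± 0.699 in control and 32.2% ± 1.0 in mimic libraries, and Csf2ra 17.2% ± 0.592 and 26.3% ± 0.731 (SD, n = 5 each). The genes nearest in profile to Csf2ra were Glmp, Ccnd3 and Unc119, those nearest to Csf2rb Abcb1a, Coro7 and Rab3d, those nearest to Csf2rb2 Arpc2, Vps11 and Ggta1, and those nearest to Il34 Lmo4, Shmt2 and Pwwp2b.

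Unlike Csf1 and Il34, the cytokine genes Csf2, Csf3 and Il5 were seen only in traces. Csf2, Csf3 and Il5, the genes of GM-CSF, G-CSF and IL-5, had means of at most 0.171, 0.148 and 0.0152 FPKM in either group and were not tested. Il3, Il5ra and Kit were found in no row under these symbols and so could not be analysed here. Of the 11 related ligands and receptors listed 2 could be tested. Flt3l, the ligand of the related receptor FLT3, fell from 3.00 ± 0.258 to 1.96 ± 0.139 FPKM (SD, n = 5 each), a log2 fold change of -0.70 (edgeR adjusted p = 1.21e-06). Kitl, the ligand of KIT, was at 2.96 ± 0.328 and 3.55 ± 0.276 FPKM and did not pass (edgeR adjusted p = 0.0672), with 0.0134 when library totals replaced TMM. Without single libraries Kitl or Flt3 passed as higher in 7 of 10 fits. Kitl did so only without control replicate 5 or without mimic replicate 1 (edgeR adjusted p = 0.0349 and 0.0410). Flt3 was at 0 in all control libraries and at a mean of 0.0498 FPKM with the miR-378a-3p mimic. It had too few counts to be tested in the main fit, so its calls rest on traces and show no reliable rise.

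Of 7 tested partners of the ligands and enzymes that process the receptor, 4 fell and 2 rose, where 31.5% of all tested genes fell and 31.7% rose. Sdc1, syndecan 1, a coreceptor of IL-34, rose from 5.13 ± 0.618 to 10.6 ± 0.863 FPKM, and Adam10, a membrane sheddase, from 25.8 ± 1.64 to 35.7 ± 1.77 (SD, n = 5 each). Cbl and Cblb, ubiquitin ligases, of which CBL marks the activated CSF1 receptor for degradation, fell by 0.31 and 0.75 on the log2 scale. Adam17, which sheds the CSF1 receptor, and Usp8, a deubiquitinase of endosomes, both named after their values were seen, fell by 0.13 and 0.15. Their FPKM values overlapped between the groups, and with limma on log2(FPKM + 1) 2 genes of this list fell. Ptprz1, the other IL-34 receptor, was at 0 in all control libraries and at a mean of 0.0013 FPKM with the miR-378a-3p mimic.

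Of the 26 genes that act directly below the CSF1 receptor, 14 fell, 5 rose and 7 did not pass, beside 31.5% lower and 31.7% higher of all tested genes. The median log2 fold change was -0.34, beside -0.0021 over all tested genes. Ptpn6, the phosphatase SHP-1 that curbs the receptor's signals, fell from 127 ± 3.86 to 64.5 ± 1.15 FPKM, and Pik3ap1, an adaptor of PI3 kinase, from 58.3 ± 2.34 to 31.2 ± 0.915 (SD, n = 5 each). The docking protein gene Gab2 and the Src family kinase gene Fyn fell by 0.94 and 0.83 on the log2 scale. Among those that rose, named after their values were seen, were Sos1, Ptpn11, Akt1 and Pik3cd, with log2 fold changes of 0.31, 0.23, 0.19 and 0.12. With library totals in place of TMM 8 rose.

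**Figure D4:**
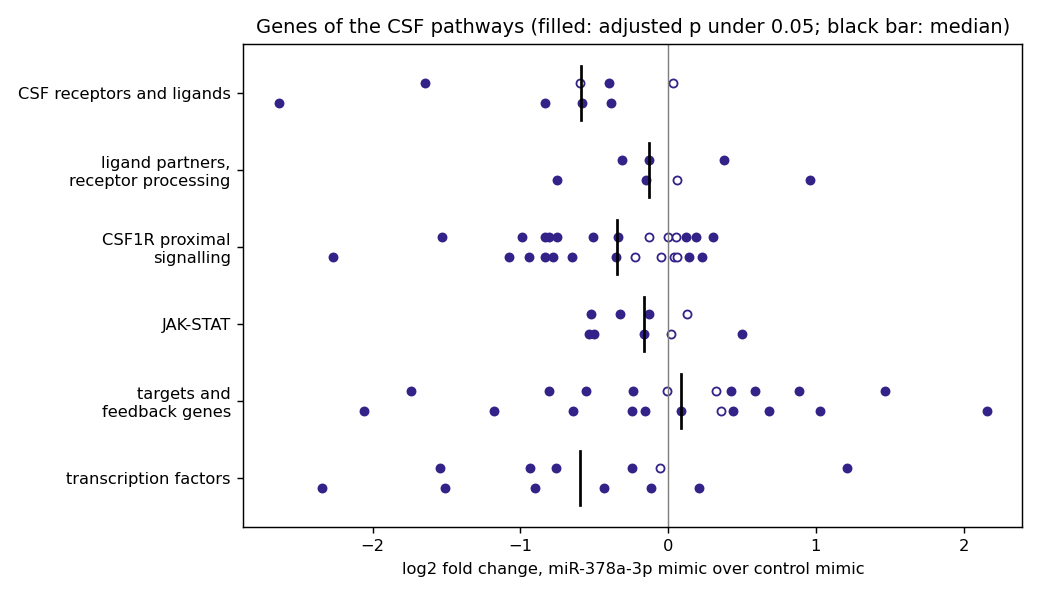
Log2 fold change of each tested gene of the family and of 5 lists of its pathways (filled circles: edgeR adjusted p under 0.05; open: not; black bar: median). Medians of the members and of the transcription factors are the lowest, at -0.59 and -0.60, and that of the target and feedback genes is 0.0846.

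Of the 9 kinases, STATs and phosphatases below the beta chain and G-CSF receptors, 6 fell and 1 rose, beside 31.5% and 31.7% of all tested genes. Stat5b fell from 15.5 ± 0.417 to 11.4 ± 0.638 FPKM (SD, n = 5 each), a log2 fold change of -0.54, and Tyk2 and Ptpn1, which encode a Janus kinase and a phosphatase, fell by 0.52 and 0.32. Jak2, the kinase bound by the beta chain and named after its value was seen, was the gene that rose, from 3.49 ± 0.252 to 5.24 ± 0.390 FPKM (log2 fold change 0.50, edgeR adjusted p = 1.0e-05). With library totals or with limma on FPKM 4 genes of this list fell and 3 rose, among the latter Jak1 and Ptpn2, and 2 rose without control replicate 2.

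Of 21 tested genes known to be induced by CSF or STAT5 signals, 9 rose and 9 fell, where 31.7% of all tested genes rose and 31.5% fell. Over the alternatives 6 to 9 genes of this list rose and 8 to 10 fell. Id2, an inhibitor of DNA-binding factors, fell from 13.9 ± 0.219 to 3.55 ± 0.463 FPKM, and Bcl2l1 and Mcl1, which oppose cell death, fell by 1.18 and 0.64 on the log2 scale. Ccnd2, cyclin D2, rose from 14.7 ± 0.566 to 25.1 ± 1.12 FPKM (SD, n = 5 each). Cish, a feedback inhibitor induced by STAT5 and singled out after its values were seen, fell at a low level from 0.308 ± 0.0497 to 0.0981 ± 0.0430 FPKM (log2 fold change -1.74, edgeR adjusted p = 4.50e-05). Other genes of the list, also named after their values were seen, went both ways. Socs2 and Pim2 rose, with log2 fold changes of 0.43 and 0.89 (edgeR adjusted p = 0.00109 and 5.12e-06), and Socs3 fell by 0.81 (5.18e-07). Myc, singled out for mimic replicate 1, the library with epithelial markers, did not pass with all libraries (edgeR adjusted p = 0.768) and without that library had a log2 fold change of -3.32 (adjusted p = 1.18e-05).

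Of 12 tested transcription factors known to act at the Csf1r and Csf2ra genes, 9 fell, 2 rose and 1 missed the threshold, beside 31.5% lower and 31.7% higher of all tested genes. Their median log2 fold change was -0.60, and that of all tested genes -0.0021. Irf8, needed for microglial development, fell from 19.1 ± 0.605 to 6.99 ± 0.331 FPKM, and Mitf, a basic helix-loop-helix factor, from 7.26 ± 0.211 to 2.71 ± 0.127 (SD, n = 5 each). Runx1 and Spi1, the gene of PU.1, fell by 0.76 and 0.44 on the log2 scale, Spi1 from 68.2 ± 2.32 to 53.6 ± 2.22 FPKM. Cebpa and Ets2, named after their values were seen, rose by 1.21 and 0.21. Of the 12 tested microglia and macrophage markers, 10 fell, 1 rose and 1 did not pass, with a median of -0.89, again beside 31.5% lower and 31.7% higher of all tested genes.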

How the data were processed

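Poly(A) RNA of 10 libraries was sequenced as strand-marked paired reads, per the labels' protocols. The authors deposited 1 table of counts and FPKM values, 1 of each for every gene in every library, per the file headers; the 20 value columns were matched to libraries by name and 0 were left unmatched. The counts are estimated counts, deposited as whole numbers in steps near 4 per read pair. The submitters' processing notes name cutadapt 1.9, HISAT2 2.2.1, StringTie 2.1.6, DESeq2, edgeR and GRCm39; no source used here gives their roles, the annotation or the strand setting. Deposited starts and ends were identical to GENCODE M21 (GRCm38) for 24730 of 28163 genes matched by ID, so coordinates are given on GRCm38.

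Counts were fitted for all genes with edgeR 4.0.16 in R 4.3.3 (filterByExpr, TMM, quasi-likelihood test, Benjamini-Hochberg adjusted p under 0.05 over all genes tested). A standard error is the log2 fold change divided by the root of the F statistic. Ratios of FPKM within libraries were compared by exact permutation with scipy 1.17.1, and coding sequences were aligned with Biopython 1.88. Alternatives were other scalings, filters and pseudocounts, counts divided by 4, DESeq2 1.42.0, limma 3.58.1 on FPKM, a replicate block, each library left out, and the beta chain genes summed. The edgeR fit was tested on simulated counts in which far fewer genes changed than were called here. The permutation test was tried on groups of known outcome, and other steps were not tested in this way. A floor of 3 read pairs is 12 counts, or 0.184 to 0.246 CPM by library, and covers counting error only. Genes named were the members, up to 4 genes of each pathway list with the smallest p, the 2 most abundant of each marker list and the 3 nearest to each member with a mean of at least 1 FPKM. Others, such as Cxcr2, S100a8, Ly6g, Gm15894, Jak1, Ptpn2 and those so marked, were named after their values were seen. The members and all lists were chosen with earlier results of these data known. Some genes that this rule names are not reported here.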

Additional observations from a re-analysis of the deposited data

Results flagged for a closer look

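Control replicate 3 held 28.6 FPKM of Csf2ra, apart from the other 4 control libraries, which lay close together. The log2 ratio of Csf2ra to the summed beta chains in the same library was -0.753, again apart from the rest of its group and towards the mimic libraries. These are one observation, since both rest on the same Csf2ra value. The gap took 0.786 of the control range for the level and 0.731 for the ratio, above the critical value of 0.71, which chance alone passes in about 1 in 20 groups, and 22 groups were looked at. Without that library the log2 fold change of Csf2ra was 0.050 (edgeR adjusted p = 0.195), and the difference in the ratio was 0.445 in place of 0.423.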

How the results depend on the processing

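Csf1r, Csf1, Csf3r, Il34, Csf2rb and Csf2rb2 fell under every alternative tried that held them. With library totals, and with limma on log2(FPKM + 1) or log2(FPKM + 0.1), 1 member (Csf2ra), 1 related gene (Kitl), 8 genes below the CSF1 receptor and 3 JAK-STAT genes were higher; both limma fits called 2 ligand partner or processing genes lower. With no low-count filter and with DESeq2, 1 related gene (Flt3) was higher. With a mean FPKM of at least 1, 1 transcription factor was higher in place of 2. Csf2ra had a log2 fold change of -0.0022 without control replicate 5, within its error, and up to 0.050 without control replicate 3. Il3ra passed with counts divided by 4 (adjusted p = 0.0431 in edgeR). With single libraries left out, 6 to 7 members were called, 0 to 2 related genes and 1 to 2 JAK-STAT genes were higher, and the differences ran from -0.88 to -0.75 for the Csf1 to Csf1r ratio and from 0.41 to 0.45 for the Csf2ra ratio. Deviations of same-numbered libraries correlated at 0.0274 to 0.307, under 0.1 in 2 of 5 pairs. Control replicates 2, 3 and 5 correlated best with the mimic library of their own number, so these values do not exclude pairing. The numbers were not taken as pairing in the main fit. With the replicate block 9768 genes were called in place of 10056, again with 6 members lower, Myc passed as lower (log2 fold change -2.10, edgeR adjusted p = 0.0492, against 0.36 and 0.768 without the block), and the ratio differences of -0.83 and 0.42 had an exact permutation p of 0.0625, the smallest that pairs allow. Of all genes, 8438 to 10186 were called over the alternatives. Depth limits Il3ra and the untested cytokine genes.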
